A study of Homo sapiens with 12 samples.

Results

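A small-molecule pull-down from HEK 293T genomic DNA left 988 peaks in loci of long intergenic noncoding RNA (LINC) genes, out of 51446 peaks in all and 48428 on the 22 autosomes. A peak was a member when its centre fell inside an autosomal locus under 500000 bases that held a gene symbol made of LINC and digits and no ZNF symbol. This rule used names and positions and no peak score, and 851 loci met it. The series studies where a small molecule captures G-quadruplexes and how transcripts respond to a compound named PDP. Its 12 samples form 6 groups of 2: the pull-down from HEK 293T genomic DNA that the labels call annealed, RNA at 3 h, at 24 h and at 72 h of PDP (dose 1 µM), RNA at 3 h of DMSO, and the input DNA. The labels do not say how the DNA was annealed or whether replicates were separate cultures. All come from HEK 293T, an established line of human embryonic kidney origin with the SV40 T antigen. In the DMSO RNA, NEFM had 39.1 FPKM (fragments per kilobase, scaled to library size) and VIM 259 FPKM, which this line is known to express. PTPRC and ALB, markers of blood and liver cells, were under 0.1 FPKM, while the fibroblast gene COL1A1 had 12.6 FPKM and the kidney factor PAX2 0.896 FPKM.

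G-quadruplexes are DNA structures in which runs of guanine stack into flat layers, and they are best known from telomeres and from gene promoters. LINC genes are transcribed stretches between protein-coding genes. Most make spliced RNA of low abundance, some act in the nucleus on chromatin or splicing, and a few were later found to encode small proteins.

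Sequence under a LINC peak could be read where a peak reached the RefSeq promoter window of a LINC gene, which runs from 250 bases before to 50 bases after the gene start (GRCh38.p14, whose primary chromosomes keep the coordinates of GRCh38.p7). Of the 892 LINC genes in these loci, 616 matched such a window, with 672 windows in all. A peak overlapped 7 of the 672 (1.04%, exact interval 0.420 to 2.13%), against 186 of 33725 autosomal windows of all genes (0.552%). The annotated start lay inside the locus for 5 of the 7. The covered stretches of these 5 are shown because they are the bases of LINC promoter windows that a peak reached. Each reads 5′ to 3′ on the gene's strand, which is minus for LINC00654 and plus for the others, with runs of at least 3 G or 3 C in capitals.
LINC01229, chr16:79770221-79770392: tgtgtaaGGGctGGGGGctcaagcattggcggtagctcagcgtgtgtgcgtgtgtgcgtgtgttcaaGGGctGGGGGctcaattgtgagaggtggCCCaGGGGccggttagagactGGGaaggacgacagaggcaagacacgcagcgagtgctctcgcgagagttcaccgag
LINC00381, chr13:74419089-74419222: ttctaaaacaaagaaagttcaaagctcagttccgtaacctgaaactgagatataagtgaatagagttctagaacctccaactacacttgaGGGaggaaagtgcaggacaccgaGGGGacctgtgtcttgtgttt
LINC01119, chr2:46827614-46827642: gaacttgtgtcctaggaaagccacctCCC
LINC00094, chr9:134025231-134025268: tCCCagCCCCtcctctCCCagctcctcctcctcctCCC
LINC00654, chr20:5504732-5504846: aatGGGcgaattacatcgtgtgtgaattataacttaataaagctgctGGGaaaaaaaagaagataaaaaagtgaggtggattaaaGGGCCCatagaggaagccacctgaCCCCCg
The LINC01229 stretch carries 6 runs of at least 3 G, the LINC00381 stretch 2, and the LINC00094 stretch 4 runs of at least 3 C, which are G runs on the other strand. The LINC00654 stretch carries 3 runs of at least 3 G and 2 of at least 3 C. The LINC00381 stretch holds the annotated start. The peaks at LINC01229, LINC00381 and LINC01119 are members, with scores of 8.73, 10.4 and 11.4. The peak before LINC00094, now named BRD3OS, scored 32.2, and that at LINC00654 scored 9.18, but their centres lay outside these loci, so neither is a member. LINC00094 RNA had 7.50 FPKM in the 3 h control, whereas LINC01229 and LINC00381 were listed at 0 FPKM.

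A motif of 4 runs of at least 3 G with gaps of 1 to 7 bases (GGG, then any bases, 4 times over, on either strand) was searched in the whole 300-base windows. It was present in 96 of 672 LINC windows (14.3%, exact interval 11.7 to 17.2%), against 8406 of 33725 windows of all autosomal genes (24.9%). Median GC content was 48.8% in LINC windows and 58.7% in all windows. Of the windows that a peak reached, 1 of 7 LINC windows held the motif, against 60 of 186 windows of all genes (32.3%). None of the 5 stretches shown holds it. A match is a description of the letters and not a site.

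The member peaks were spread thinly, and most LINC loci held few or none. Of 851 loci, 500 held no peak, 154 held 1, 71 held 2 and 56 held 5 or more. Those 56 loci carried 452 of the 988 peaks (45.7%). A peak was present in 351 loci (41.2%, exact interval 37.9 to 44.6%), against 28.2% of the 29639 other loci. Across all 30971 autosomal loci under 500 kb the share was 28.8%. Locus length goes with this difference: the median LINC locus was 19.8 kb long (19794 bases), against 6089 bases for other loci. Other loci are autosomal loci under 500 kb with neither a LINC nor a ZNF symbol. In loci under 5 kb a peak was present in 6.18% of LINC loci (3.12 to 10.8%) and 1.59% of other loci (1.39 to 1.81%). In that class the median LINC locus was 2244 bases long and the median other locus 712. Per base, the ratio there was 1.81 for LINC over other loci (0.893 to 3.31, exact test adjusted p = 0.125, 11 LINC peaks). In loci of 5 to 20 kb the shares were 22.7% of LINC loci and 21.9% of other loci. In loci of 20 to 100 kb the shares were 53.5% of LINC loci and 56.2% of other loci, and in loci of 100 to 500 kb they were 87.5% of LINC loci and 89.9% of other loci.

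**Figure D1:**
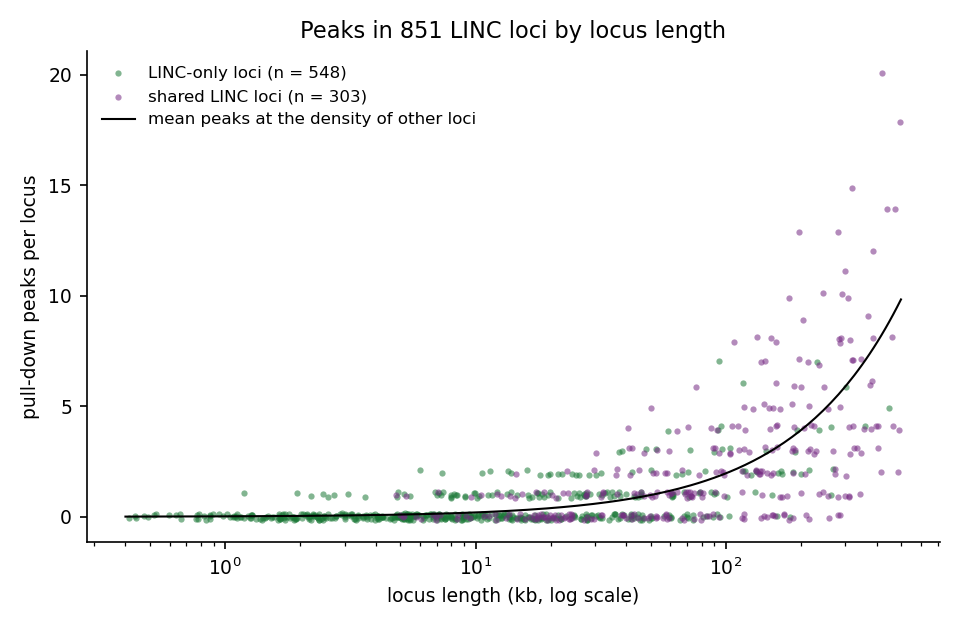
Number of pull-down peaks in each of the 851 LINC loci (vertical axis, points shifted slightly to part ties) against locus length in kb on a log scale. Green points are loci with LINC symbols alone, purple points are loci shared with other genes, and the line is the mean expected at 19.7 peaks per Mb, the density of other loci. Loci under 5 kb mostly sit at 0, and the highest point is a shared locus with 20 peaks.

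Measured per base, LINC loci held 18.6 peaks per Mb (exact Poisson interval 17.4 to 19.8, 988 peaks in 53.2 Mb). Other loci held 19.7 peaks per Mb (19.4 to 19.9, 21971 peaks). The ratio was 0.945 (interval 0.885 to 1.01, exact binomial test, two-sided p = 0.0813), so a difference from other loci was not shown. These intervals cover counting error alone. Expected counts were taken as locus length times the mean density of the group. Around them, peak counts of LINC loci varied 2.04 times as much as counting error gives, and those of other loci 1.67 times. Only loci with an expected count of at least 1 entered (258 LINC loci), so short loci did not. Differences by length and chromosome are part of this spread. Scaled to that spread, the interval of the ratio to other loci spans 0.863 to 1.03. The same values were applied below to short loci, locus ends and bases between loci, where the spread was not measured.

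LINC loci stood below antisense loci and above the bases between loci. Loci with an antisense symbol (ending in -AS and digits, no LINC) held 20.9 peaks per Mb, a ratio of 0.890 for LINC over antisense (interval 0.825 to 0.961, exact test adjusted over 3 comparisons p = 0.00388). With the spread between loci its interval was 0.802 to 0.989. Length and chromosome were not matched in this comparison. Bases between loci held 15.8 peaks per Mb, a ratio of 1.17 (1.10 to 1.25, exact test adjusted p = 4.66e-06, interval 1.07 to 1.28 with the spread). Assembly gaps were not taken out of those bases, and their part in the lower density was not tested. ZNF loci held 16.7 peaks per Mb, a ratio of 1.11 (0.995 to 1.24, exact test adjusted p = 0.0600).

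The LINC loci are of a mixed kind. In 548 loci every symbol was LINC, with a median length of 8903 bases and 14.4 Mb in all. The other 303 were shared with further genes, such as protein-coding genes and pseudogenes, and made up 72.9% of the bases. Much of the member sequence is therefore not LINC sequence alone. The LINC-only loci held 251 peaks at 17.4 per Mb (15.3 to 19.7) and the shared loci 737 peaks at 19.0 per Mb (17.7 to 20.4). Their ratio was 0.914 (0.789 to 1.06, exact test p = 0.224).

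Among LINC-only loci, peak density was higher in short than in long loci. It was 23.3 per Mb in loci under 5 kb (10 peaks), 25.8 in loci of 5 to 20 kb, 17.6 in loci of 20 to 100 kb and 13.6 in loci of 100 to 500 kb (77 peaks in 30 loci). LINC-only loci under 20 kb held 1.62 times the density of longer LINC-only loci (1.20 to 2.16, exact test adjusted p = 0.00368, interval 1.09 to 2.40 with the spread between loci). The interval with the spread took 1.67, the value of other loci, for the longer LINC-only loci in place of 2.04, so it is too narrow. Even so, its adjusted p was 0.0498 (normal approximation), so the call is not firm with the spread. Among other loci the ratio of short over long was 1.05 (0.997 to 1.11, exact test adjusted p = 0.0635), and the difference between these ratios was not tested. The longest LINC-only class stood below other loci of that length, with a ratio of 0.705 (0.556 to 0.882, exact test adjusted over 4 lengths p = 0.00592). With the spread between loci its interval was 0.512 to 0.971, and the call was lost after adjustment. It was also lost against other loci of a single gene (ratio 0.763, exact test adjusted p = 0.0804).

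**Figure D2:**
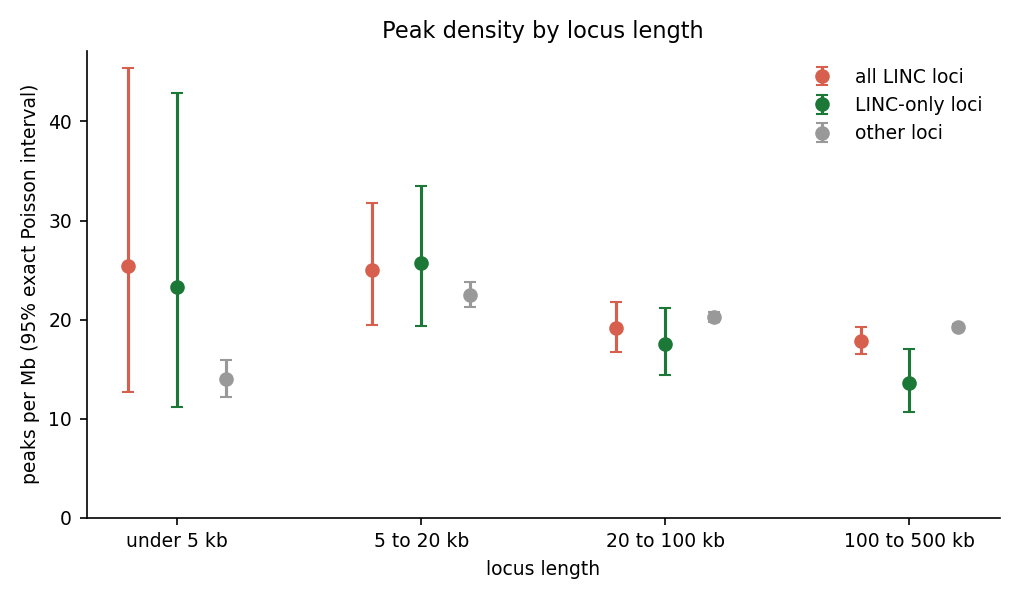
Peaks per Mb in 4 classes of locus length, for all LINC loci, LINC-only loci and other loci, with 95% exact Poisson intervals. LINC-only loci step down from 25.8 per Mb at 5 to 20 kb to 13.6 at 100 to 500 kb, while other loci of these lengths lie between 19.3 and 22.5.

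Peaks near the ends of LINC loci were counted next. Within the outermost 1 kb inside a locus, LINC loci held 37 peaks at 22.5 per Mb (15.8 to 31.0), and other loci held 537 at 12.3 per Mb (11.2 to 13.3). The ratio was 1.83 (1.28 to 2.56, exact test adjusted over 7 windows p = 0.00728). With the spread between loci its interval was 1.14 to 2.94, and the call was lost after adjustment. Further inside, at 1 to 5 kb from an end, the densities were 22.01 per Mb in LINC loci and 21.69 in other loci. Just outside, within 1 kb, they were 16.8 per Mb at LINC loci and 20.7 at other loci (ratio 0.812, exact test adjusted p = 0.463).

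Loci of at least 5 kb held 28 of the 37 LINC peaks in the outermost 1 kb, so they are not separate support. The density there was 20.8 per Mb in LINC loci and 12.7 in other loci (ratio 1.64, 1.08 to 2.41, exact test p = 0.0143, interval 0.953 to 2.83 with the spread between loci). In loci of at least 20 kb the ratio was 1.74 (0.997 to 2.85, interval 0.866 to 3.50 with the spread, 17 LINC peaks). LINC-only loci of at least 5 kb held 19 peaks in the outermost 1 kb, at 25.6 per Mb (ratio to other loci 2.02, 1.20 to 3.20, exact test p = 0.00503, interval 1.05 to 3.89 with the spread between loci), while shared LINC loci held 9 at 14.9 per Mb (ratio 1.18, 0.534 to 2.26). These splits were chosen after the data were seen, and the difference between LINC-only and shared loci was not tested. Both ends of a locus were counted together, and starts and ends of genes were not told apart here.

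**Figure D3:**
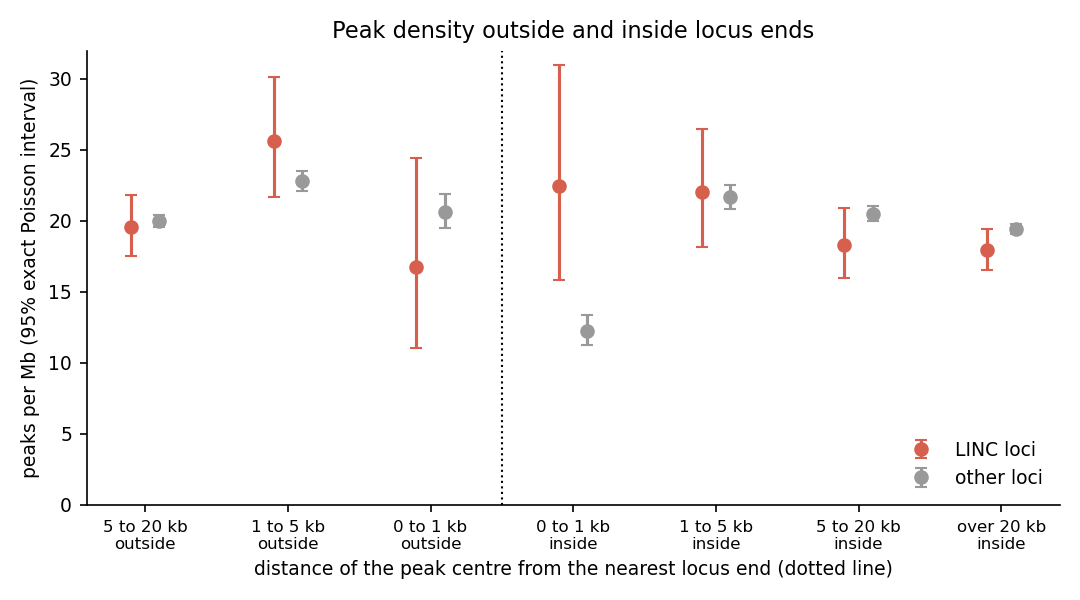
Peaks per Mb by distance of the peak centre from the nearest locus end (dotted line), outside on the left and inside on the right, for LINC loci and other loci with 95% exact Poisson intervals. In the first 1 kb inside, LINC loci lie at 22.5 per Mb and other loci at 12.3.

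Peak density also varied by chromosome. In LINC loci it ranged from 4.55 per Mb on chromosome 18 to 34.9 on chromosome 22, and other loci ranged from 12.5 on chromosome 18 to 31.0 on chromosome 21. LINC loci were above other loci on 12 chromosomes and below on 10. Chromosome 18 stood apart, with 9 peaks in 19 LINC loci (ratio 0.363, 0.165 to 0.697, exact test adjusted over 22 chromosomes p = 0.0139), and chromosome 4, with 32 peaks in 35 loci (ratio 0.583, exact test adjusted p = 0.0169). With the spread between loci neither passed after adjustment, with intervals of 0.141 to 0.932 and 0.353 to 0.963. On chromosome 18 the shared loci of LINC01478, 208 kb long, and LINC01544, 171 kb long, held no peak, and both were picked after their values were seen. Chromosome 13 held the most LINC loci, 147 of 851, at 14.0 peaks per Mb in LINC loci and 14.3 in other loci. HEK 293T is known to carry unequal copy numbers of its chromosomes, and the part of copy number in these densities was not tested.

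**Figure D4:**
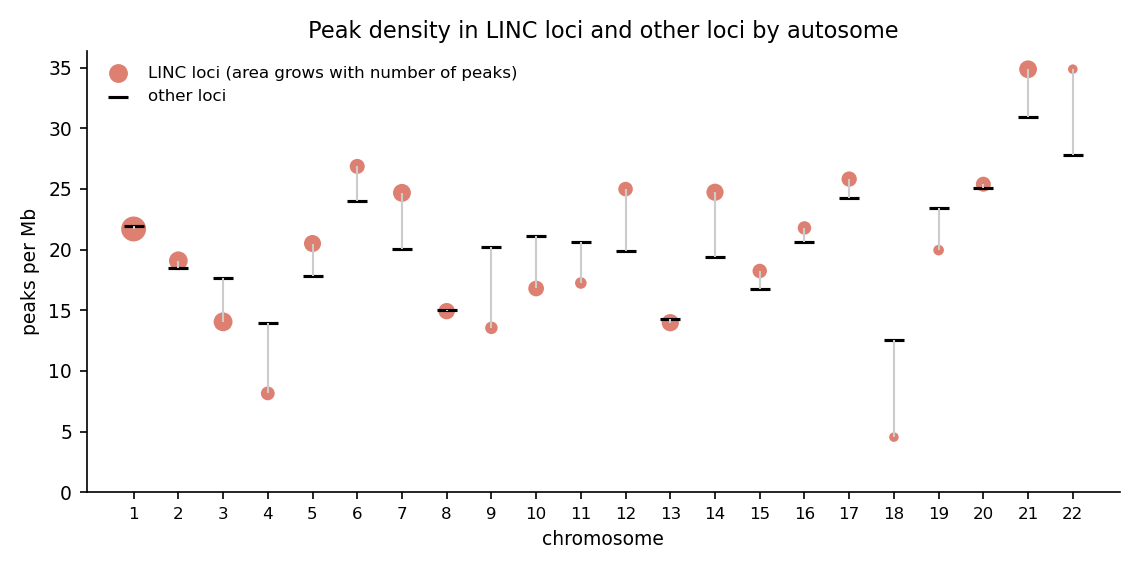
Peaks per Mb in LINC loci (circles, area growing with the number of peaks) and in other loci (black dashes) on each autosome. Circles and dashes rise and fall together across most chromosomes, and the largest gap downward is on chromosome 18, at 4.55 against 12.5 per Mb.

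The LINC loci with the most peaks were long and, for all 10, shared with other genes. The LINC00244 and LINC01006 locus on chromosome 7 (156472196 to 156893230, GRCh38.p7), which also holds LMBR1 and RNF32, held 20 peaks with a median score of 14.1. LMBR1 is known for an intron that carries the limb enhancer of sonic hedgehog. The LINC00856 locus on chromosome 10 held 18 peaks in 496 kb and the LINC00511 locus on chromosome 17 held 15 peaks in 317 kb. LINC01524 on chromosome 20 and LINC00649 on chromosome 21 had 14 peaks each, and LINC01057 and LINC01411 had 13 each. LINC00994 had 12, LINC00216 had 11 and LINC01144 had 10, a count it shares with LINC01358, LINC00466 and the LINC00870 and LINC00877 locus. By density LINC01411 (chromosome 5, 174336295 to 174532457) was the highest of these 10, at 66.3 peaks per Mb.

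Among LINC-only loci of at least 10 kb with at least 3 peaks, LINC01075 on chromosome 13 was the densest, at 80.3 per Mb (3 peaks in 37.4 kb). LINC01484 had 77.7 per Mb, LINC01234 74.3, LINC01498 68.4 and LINC01257 62.6. LINC01234 (chromosome 12, 113679459 to 113773683) held 7 peaks, with scores of 22.6, 19.3, 16.1, 15.6, 15.2, 14.6 and 9.48. Its median score of 15.6 lies above the median of 11.0 over all LINC peaks. At the other extreme, LINC00351, at 181 kb on chromosome 13, was the longest LINC-only locus with no peak, followed by LINC00824 (159 kb), LINC01258 with LINC01259 (103 kb), LINC00290 (95.1 kb) and LINC00571 (92.4 kb). The longest member locus, at 495936 bases, held 18 peaks, and the shortest LINC locus over the limit, at 502877 bases, held 2.

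Peak scores in LINC loci lay close to those elsewhere. The score is the authors' value for each merged peak, its unit is not stated, and no replicate values of it are given. Its median was 11.0 in LINC loci (quartiles 9.03 and 14.5) and 10.9 in other loci (9.10 and 14.0). Of the LINC peaks, 102 (10.3%, exact interval 8.50 to 12.4%) scored at least 19.6, the limit of the top 10% of autosomal peaks, against 9.76% in other loci. The share was 12.4% (8.55 to 17.1%) in LINC-only loci and 9.63% in shared loci. It was 12.3% (11.4 to 13.2%) in other loci of a single gene and 11.2% outside loci. Peaks were 403 to 723 bases wide, and 472 of 988 had the smallest width.

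The highest member was a peak in LINC00486, a LINC-only locus of 101 kb on chromosome 2 (peak from 32916116 to 32916518). It scored 242, the 4th highest of all autosomal peaks, and it was the only peak in its locus. Read mapping and input signal at this site were not checked here. LINC00486 RNA was listed at 0 FPKM in the control and with PDP at all 3 times. The next members scored 62.1 at LINC01089 on chromosome 12, 60.9 at the LINC00244 and LINC01006 locus, 56.2 at LINC01605 on chromosome 8, 55.1 at LINC00846 on chromosome 21 and 54.7 at LINC01503 on chromosome 9. The loci of LINC00313, LINC01135, LINC00229 and LINC01411 held peaks of 46.0, 43.8, 43.6 and 42.7. These names are those of loci. After LINC00486, only LINC01503 and LINC00229 among them are LINC-only, and a peak in a shared locus need not lie in the LINC gene. The LINC01089 locus also holds RHOF and TMEM120B, and the LINC00846 locus C21orf59 and TCP10L. The lowest scores were 6.88 at LINC00609, 6.94 at LINC01339 and 7.14 at LINC01141, a score that LINC00639 shares. The LINC00486 peak stood apart, and the next members followed each other closely.

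Each peak also carries a chromosome name with a number from the list of each replicate. What the number means is not stated, and it was read here as an order within the chromosome. Low numbers went with high scores, with Spearman correlations of -0.89 and -0.86 between score and percentile of the number. The LINC00486 peak was number 1 on chromosome 2 in both lists, and the highest LINC01605 peak was number 1 on chromosome 8 in both. Across the 988 LINC peaks the percentiles of these numbers in the replicate lists had a Spearman correlation of 0.61, against 0.57 over peaks in other loci. This is a description over peaks that share the same libraries. In the top 10% of their chromosome were 106 LINC peaks by the first list and 103 by the second, and 65 by both. For 279 of 988 peaks the lists differed on which side of the middle the peak lay.

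**Figure D5:**
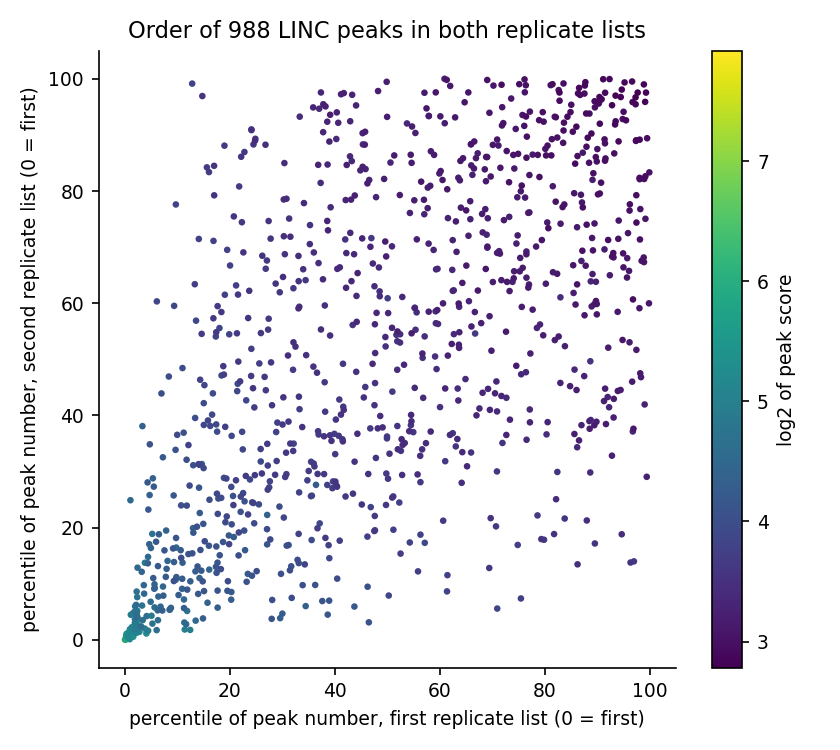
Percentile of each of the 988 LINC peaks by its number within its chromosome in the first (horizontal) and second (vertical) replicate list, where 0 is the first number, coloured by log2 of the score. High-scoring peaks gather at the lower left in both lists, and peaks of low score scatter widely.

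Close neighbours were rare. The nearest other peak lay at a median of 14.2 kb (14185 bases) from a LINC peak and 15.3 kb (15302 bases) from a peak in other loci. Within 2 kb, 0 of 251 peaks of LINC-only loci had a neighbour (exact interval up to 1.46%), against 246 of 5597 peaks (4.40%, 3.87 to 4.97%) in other loci of a single gene. In shared LINC loci 42 of 737 peaks had one (5.70%, 4.14 to 7.63%). At 5 kb the shares were 13.1% (9.23 to 18.0%) in LINC-only loci and 14.0% in other loci of a single gene. The 2 kb limit was chosen after the data were seen, and neighbours count each other, so these shares are not from independent peaks.

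RNA of the LINC genes was mostly low. Of 892 LINC genes, 654 were listed at 0 FPKM in the control. Loci with a LINC RNA of at least 1 FPKM in the control held 21.6 peaks per Mb (18.1 to 25.6, 133 peaks in 69 loci), and loci listed at 0 held 18.1 (16.7 to 19.5, 620 loci). The ratio of at least 1 FPKM over under 1 FPKM was 1.19 (0.981 to 1.43, exact test p = 0.0733). In LINC-only loci it was 1.63 (0.931 to 2.66, exact test p = 0.0596, 17 peaks in 25 loci). Neither ratio passed the threshold at these counts.

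Some of these RNAs differed between PDP and the control, by the authors' q-value under 0.05. The values are pooled over replicates, so no SD between libraries can be given, and DMSO for 3 h is the control at all 3 times. At 24 h and 72 h, PDP and time in culture therefore cannot be told apart. Of 104 LINC genes tested at 3 h, 0 were called in the authors' deposited table (Cufflinks), with 4 at an unadjusted p under 0.05. Of all tested genes at 3 h, 0.115% were called, 0.108% higher and 0.00678% lower. At 24 h, 10 of 109 LINC genes were higher (9.17%) and 2 lower (1.83%) in the authors' deposited table, against 9.21% and 8.29% of all tested genes (17.5% in either direction). At 72 h, 18 of 110 were higher (16.4%) and 8 lower (7.27%) there, against 19.0% and 12.8% of all tested genes (31.8% in either direction). The shares of higher calls lay near those of all genes. The median log2 fold change of tested LINC genes was 0.11 at 24 h and 0.33 at 72 h, against -0.0036 and 0.13 for all tested genes.

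Calls fell in loci with and without a peak. Here and below, the peak count given for a gene is that of its whole locus, which can be shared with other genes. At 72 h, 9 higher and 3 lower calls fell among 57 tested LINC genes in loci with a peak, and 9 higher and 5 lower among 53 in loci with none. At 24 h the counts were 5 higher and 1 lower of 56 with a peak, and 5 higher and 1 lower of 53 with none. The median log2 fold change at 72 h was 0.22 with a peak and 0.34 with none.

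Among the called genes with a peak, LINC00173, a LINC-only locus of 3.10 kb on chromosome 12, held 1 peak of score 10.5. Its RNA had 10.1 FPKM with PDP and 0.394 FPKM in the control at 24 h, a log2 fold change of 4.68 (standard error implied by the authors' statistic 1.48, authors' deposited q = 0.000908). With 1 FPKM added to both values the log2 fold change was 3.00. LINC00963, with 2 peaks of 16.9 and 12.4, had 10.8 FPKM with PDP at 24 h and 4.71 FPKM in the control. LINC01012, with a peak of 17.5, had 8.10 FPKM with PDP at 72 h and 1.82 FPKM in the control. LINC01011, with 3 peaks beside NQO2, a quinone reductase gene, had 7.27 FPKM with PDP at 72 h and 0.470 FPKM in the control.

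Falls were also seen at loci with peaks. LINC01234, the locus with 7 peaks, had 4.22 FPKM with PDP at 72 h and 10.3 FPKM in the control (log2 fold change -1.29, authors' deposited q = 0.000393). LINC01588, in a shared locus with 5 peaks, had 0.328 FPKM with PDP at 24 h and 1.19 FPKM in the control. LINC01547, in a shared locus with 1 peak, had 0.832 FPKM with PDP at 72 h and 2.94 FPKM in the control. Without a peak in the locus, LINC00680 fell to 1.95 FPKM with PDP at 24 h, against 6.72 FPKM in the control, LINC01355 fell to 0.595 FPKM at 72 h, against 2.97 FPKM, and LINC01002 and LINC01003 rose at 72 h to 18.4 and 11.3 FPKM, against 2.60 and 2.78 FPKM. LINC01572, in a shared locus with 6 peaks, rose to 2.97 FPKM at 72 h, against 0.718 FPKM in the control. Of the 10 called genes of largest change at each time, those not yet named were LINC00623 (6.29 FPKM with PDP and 3.15 FPKM in the control at 24 h), LINC00857, LINC01419 and LINC00847, each under 2 FPKM. LINC00152, LINC00623 and LINC00680 have near-identical copies elsewhere in the genome, so their values are uncertain. The RNA kit was stranded, but whether strand was used in counting is not stated, so reads of overlapping partners cannot be told apart.

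Of 8 LINC symbols now known for small proteins, 6 lay in these loci and 4 of those were tested at each time. By the authors' q-value 0 of the 4 were called, and 0 had an unadjusted p under 0.05, against 0.115%, 17.5% and 31.8% of all tested genes called at 3 h, at 24 h and at 72 h. LINC00493, which encodes the mitochondrial protein SMIM26, lies in a locus with DTD1 that held 7 peaks, and its RNA had 52.6 FPKM with PDP at 72 h and 65.1 FPKM in the control. LINC00998, which encodes SMIM30, held 1 peak of 7.29 in its locus and had 83.3 FPKM with PDP at 72 h and 77.5 FPKM in the control. LINC00116, the source of mitoregulin, had no peak in a locus of 74.3 kb and 14.5 FPKM with PDP at 72 h against 12.2 FPKM in the control. LINC00675, in a locus with 7 peaks, was listed at 0 FPKM, and the LINC00961 locus, the source of the SPAR polypeptide, held 1 peak. LINC00467 held 2 peaks and had 3.63 FPKM with PDP at 72 h and 5.06 FPKM in the control.

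Of 19 LINC RNAs with described functions, 14 lay in these loci, and 11 of those had a peak or at least 1 FPKM. Of the 10 of these 11 that were tested at 72 h, 3 were called, all higher, against 19.0% of all tested genes called higher. LINC00152, known as CYTOR in cancer cells, held 1 peak and had 6.50 FPKM with PDP at 72 h and 2.24 FPKM in the control, a called rise of 1.53 on the log2 scale. LINC00511, in a shared locus with 15 peaks, had 1.03 FPKM with PDP at 72 h and 0.928 FPKM in the control, which was not called. The shared loci of LINC01128 (22 genes) and LINC00662 (13 genes) held 2 peaks each. LINC01128 and LINC00662 RNA had 5.72 and 7.35 FPKM with PDP at 72 h, against 8.43 and 6.29 FPKM in the control, and neither was called. LINC00472, with 1 peak, had 3.98 FPKM with PDP at 72 h and 0.479 FPKM in the control, and its q of 0.0508 missed the limit. LINC01010, with 4 peaks, was listed at 0 in the control, LINC00839 held 1 peak, and LINC00665 and LINC01116 held none.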

How the data were processed

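Per the submitters' processing notes, the authors worked on GRCh38.p7 with the read trimmer Trim Galore 0.4.4. The notes also name the aligners HISAT2 2.0.5 and Bowtie2 2.2.9, and SAMtools 1.3.1 with Picard. Cufflinks 2.2.1 and HOMER 4.9.1 complete the list. Tool settings are not given in the sources used here. The deposited peak list holds 1 score per peak and a number from each of 2 replicate lists. The deposited RNA tables hold FPKM, a test score, p-value and q-value per gene, pooled by the authors over replicates, and fold changes were computed from the FPKM. Library depth is therefore unknown, and intervals cover counting error only. The DMSO values of the 24 h and 72 h tables are those of the 3 h table times 1.04 and 0.968.

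Loci were taken from the RNA tables, whose starts were shifted by 1 to count from 1, and no autosomal loci overlapped. Densities have exact Poisson intervals, ratios exact conditional binomial tests (two-sided, 95% intervals, Benjamini-Hochberg within families), and shares Clopper-Pearson intervals (SciPy 1.17.1). The assignment of peaks to loci and the exact ratio intervals were tested on simulated peaks with counting error alone. The intervals with the spread between loci were not tested in this way. Named items were the 10 loci with most peaks, 5 densest and 5 longest empty LINC-only loci, the 10 highest and 3 lowest peaks, the 10 called genes of largest change at 24 h and at 72 h with at least 1 FPKM in either condition, and 2 lists. Other genes named with values were chosen after their values were seen. The members and lists were chosen with earlier results of these data known. The tests at locus ends, by chromosome and by transcript level, and the intervals with the spread between loci (a normal approximation on the log scale), were added after seeing the data. The split of loci at 20 kb was not in the plan.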

Additional observations from a re-analysis of the deposited data

Results flagged for a closer look

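The report covers autosomes, and peaks were also present in LINC loci on chromosome X. There 52 peaks lay in 31 LINC loci under 500 kb, a density of 25.9 per Mb (exact interval 19.4 to 34.0), above the 1.497 per Mb that a count of 0 allows. Other loci on chromosome X held 21.8 per Mb, a ratio of 1.19 (0.881 to 1.57, exact test p = 0.218).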

How the results depend on the processing

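The density ratio of LINC loci over other loci (0.945) turned to 1.00 (exact test p = 0.977) in loci under 100 kb and passed the threshold at 0.943 (exact test p = 0.0365) with loci of any length. Leaving out each chromosome in turn, an alternative chosen after seeing the data, gave 0.923 to 0.968, and it passed without chromosome 5 (0.933), 7 (0.930), 12 (0.936), 14 (0.930) or 21 (0.923). The ratio of LINC-only over shared loci (0.914) passed at 0.849 (p = 0.00881) with shared loci weighted to LINC-only lengths, also chosen after seeing the data, in a test that takes the shared counts as exact. The p-values of all these alternatives cover counting error alone, and the spread between loci was not applied to them. With that spread the interval of the reported ratio of 0.945 was 0.863 to 1.03. The share of LINC loci with a peak (41.2%) was 28.7% for peaks scoring at or above the median and 29.9% for loci under 100 kb, which hold fewer peaks or bases. With q under 0.01 the calls numbered 6 at 24 h and 17 at 72 h, against 12 and 26. The causes of the other changes were not tested. A pseudocount of 1 FPKM made all 20 log2 fold changes tried smaller in size, 11 of them by less than their standard error, and reversed none. Values that moved include LINC00173 at 24 h (3.00, against 4.68), LINC01588 at 72 h (-0.98, against -3.98), LINC00847 at 72 h (0.95, against 2.35) and LINC01011 at 72 h (2.49, against 3.95). No paired analysis was possible because the deposited values are pooled over replicates, and leaving out a replicate was not run for that reason. The motif search in peaks was not run, since no genome was used here.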
